A study of Mus musculus with 13 samples.

Results

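The BAF complex (mammalian SWI/SNF) was examined through 10 of its subunit genes, Smarca4, Smarcb1, Smarcc1, Smarcc2, Smarcd1, Smarcd2, Smarce1, Arid1a, Brd9 and Actl6a, which were taken by gene symbol from a count table of 24470 genes. All 10 symbols were found, each on 1 row. The cells were E14 mouse embryonic stem cells of 129/Ola background, kept in serum with leukemia inhibitory factor, and the labels name no mutation or drug in any group. A low-input protocol took open chromatin (ATAC-seq, cutting of accessible DNA by the transposase Tn5) and poly(A) mRNA from the same lysate of 5000, 10000 or 20000 cells. Experiment 1 gave libraries from 10000 and 20000 cells, and experiment 2, on another day, gave libraries from 5000, 10000 and 20000 cells, which makes 5 mRNA and 5 ATAC libraries. For comparison, 3 libraries were made by Omni-ATAC, a published version of ATAC-seq, from 5000, 10000 and 50000 cells.

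BAF complexes use the energy of ATP to slide and evict nucleosomes, and they keep enhancers and promoters accessible. Each complex holds a catalytic ATPase (SMARCA4, also called BRG1, or SMARCA2, also called BRM), a core with SMARCC and SMARCD proteins, and actin-related subunits. SMARCB1 and SMARCE1 belong to the core of the canonical and polybromo forms and are absent from the non-canonical form. Further subunits divide the family into canonical BAF with ARID1A or ARID1B, polybromo BAF with ARID2, PBRM1, BRD7 and PHF10, and a non-canonical form with BRD9 and BICRA or BICRAL. Embryonic stem cells are known for a form with SMARCA4, SMARCC1 and ACTL6A, whereas neurons exchange several subunits for paralogs such as ACTL6B.

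The 5 mRNA libraries held 13727122 to 20426252 counts each, so that a count of 0 allows up to 0.147 to 0.219 CPM (counts per 1000000 of the library's total). The 5 embryonic stem cell markers Pou5f1, Sox2, Nanog, Zfp42 and Esrrb summed to between 941.3 and 1151 CPM in every library. The 3 endoderm markers summed to between 0.645 and 4.37 CPM, the 4 neural markers to between 19.8 and 37.4 CPM, and the 4 fibroblast markers to between 7.54 and 34.7 CPM, of which Col3a1 had 0 counts in all 5 libraries. Among them, Thy1 had 6.77 to 33.9 CPM and Tubb3 14.2 to 26.3 CPM. Per library, 0 or 1 of the endoderm markers, 0 or 1 of the neural markers and 1 or 2 of the fibroblast markers had 0 counts. These are bulk libraries, in which fewer cells that express a gene and less RNA per cell cannot be told apart. Gene lengths were not used here, so CPM of different genes are not ranked against each other.

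Smarca4 (mm10 chromosome 9, 21616169 to 21704230), the ATPase that drives the complex, had 172.9 CPM with 10000 cells and 212.7 CPM with 20000 cells in experiment 1. In experiment 2 it had 177.6 CPM with 5000 cells, 191.5 CPM with 10000 cells and 266.9 CPM with 20000 cells. In both experiments the library from 20000 cells was the highest, and the experiments overlapped. Its paralog Smarca2, the alternative ATPase, had 0 and 3 counts in experiment 1 and 0, 6 and 5 counts in experiment 2 (libraries in order of cell number), beside 2374 to 5451 counts of Smarca4. Smarca2 was at or near the limit that a count of 0 allows in every library.

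The core subunits that scaffold the ATPase were detected in all 5 libraries. Smarcb1 (chromosome 10, 75896769 to 75921614), which contacts the nucleosome and is lost in rhabdoid tumours, had 197.9 and 203.2 CPM in experiment 1 and 244.9, 227.3 and 264.9 CPM in experiment 2 (libraries in order of cell number). All 3 libraries of experiment 2 lay above both of experiment 1. Smarcc1 (chromosome 9, 110132024 to 110240178), encoding the scaffold protein BAF155, had 59.8 and 58.7 CPM in experiment 1 and 43.1, 72.3 and 71.3 CPM in experiment 2. The library from 5000 cells was the lowest of all and the other libraries of experiment 2 were the highest. Smarcc2 (chromosome 10, 128459236 to 128490174), encoding the related scaffold BAF170, had 10.3 and 9.57 CPM in experiment 1 against 7.34, 7.80 and 8.62 CPM in experiment 2. It was the only subunit of the 10 whose libraries all lay lower in experiment 2.

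Smarcd1 (chromosome 15, 99702287 to 99713995), a core adaptor also called BAF60a, varied least, with 103.2 and 113.0 CPM in experiment 1 and 115.7, 109.5 and 125.1 CPM in experiment 2. Its coefficient of variation over the 5 libraries was 7.16%. Smarcd2 (chromosome 11, 106263171 to 106272972), its paralog BAF60b, had 10.9 and 11.6 CPM in experiment 1 and 14.2, 10.6 and 11.7 CPM in experiment 2, with the library from 5000 cells the highest. Smarce1 (chromosome 11, 99209047 to 99231017), the HMG-box subunit BAF57, had 23.6 and 18.9 CPM in experiment 1 and 30.3, 36.2 and 36.2 CPM in experiment 2. The experiments did not overlap for Smarce1.

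Arid1a (chromosome 4, 133679008 to 133753611), the large subunit of canonical BAF, had 62.1 and 58.5 CPM in experiment 1 and 58.0, 76.2 and 75.1 CPM in experiment 2. The library from 5000 cells lay just below experiment 1. Brd9 (chromosome 13, 73937811 to 73960889), the bromodomain subunit that defines non-canonical BAF, had 17.6 and 16.0 CPM in experiment 1 and 24.0, 24.2 and 30.9 CPM in experiment 2. As for Smarce1, every library of experiment 2 was above every library of experiment 1. Actl6a (chromosome 3, 32708546 to 32726971), the actin-related subunit BAF53a, had 180.6 and 140.5 CPM in experiment 1 and 163.2, 167.7 and 184.2 CPM in experiment 2. Here the experiments overlapped, and the library from 20000 cells was the lowest in experiment 1 and the highest in experiment 2. Over the 10 subunits the coefficient of variation ran from 7.16% to 26.5% with a median of 13.7%, beside a median of 15.0% over the 6485 genes whose mean over the libraries reached 10 CPM, called expressed genes in what follows. Of the 10 subunits 9 belong to that set, and Smarcc2, with a mean of 8.72 CPM, does not.

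**Figure D1:**
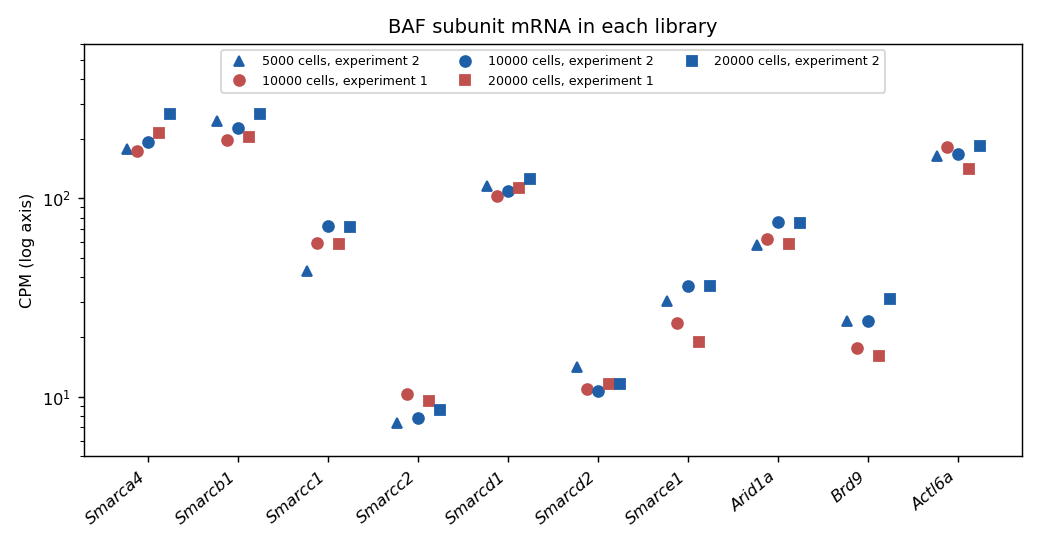
CPM on a log axis for each of the 10 subunit genes, 1 point per mRNA library, coloured by experiment (red 1, blue 2) and shaped by cell number (triangle 5000, circle 10000, square 20000). The blue points of Smarcb1, Smarce1 and Brd9 all sit above the red ones, and those of Smarcc2 all sit below.

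Experiment 2 repeated experiment 1 on a different day, and the first question was how well the subunits' mRNA repeated. Smarce1 and Brd9 were higher in experiment 2, and the other 8 subunits did not pass the test. That is 2 of 10 subunits called by edgeR's quasi-likelihood test (Benjamini-Hochberg adjusted p under 0.05) in a fit of the 4 libraries with a counterpart in the other experiment, beside 12.5% of the 12523 genes tested. In the upward direction the share over all genes was 5.75%, and in the downward direction, in which 0 of the 10 were called, 6.76%. Smarce1 rose by a log2 fold change of 0.77 ± 0.18 (SE, edgeR adjusted p = 0.00476). Brd9 rose by 0.72 ± 0.19 (SE, edgeR adjusted p = 0.0145). By unadjusted p under 0.05, Smarcb1 and Arid1a came in as well, which makes 4 of 10 beside 25.7% of genes. Smarce1 and Brd9 had the same direction at 10000 and at 20000 cells. The differences of log2(CPM + 1) were 0.60 and 0.90 for Smarce1 and 0.43 and 0.91 for Brd9. The library from 5000 cells took no part in the fit, and for both genes it lay on the side of experiment 2.

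Of the other subunits, Arid1a (0.33 ± 0.14), Smarcb1 (0.30 ± 0.12), Smarcc1 (0.28 ± 0.14) and Smarca4 (0.25 ± 0.14) had log2 fold changes above 0 with edgeR adjusted p-values of 0.124, 0.110, 0.204 and 0.275 (SE in each case). The values were 0.13 ± 0.13 for Actl6a, 0.12 ± 0.13 for Smarcd1, -0.02 ± 0.24 for Smarcd2 and -0.27 ± 0.26 for Smarcc2, with edgeR adjusted p-values of 0.574 to 0.979. The median log2 fold change of the 10 was 0.26, beside 0.00 over all genes tested, and 8 of the 10 were above 0, beside 50.1% of all genes tested. When all 5 libraries were considered, 3 of the 10 were higher in every library of experiment 2 than in any of experiment 1 (Smarcb1, Smarce1, Brd9) and 1 was lower (Smarcc2), 4 in all. Over the expressed genes the shares were 21.1% higher, 25.2% lower and 46.3% in all, in a set that does not hold Smarcc2.

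Brd9 lost its call when the experiment 2 library from 20000 cells was left out, at 0.54 with an edgeR adjusted p of 0.21 (range over 11 alternatives 0.00519 to 0.21). Smarce1 remained called in all 11 (edgeR or DESeq2 adjusted p of 0.000724 to 0.0387), and Smarca4 became called, at 0.48 with an edgeR adjusted p of 0.047 (range 0.047 to 0.994), without the experiment 2 library from 10000 cells. The value of Smarca4 was 0.0043 without the experiment 2 library from 20000 cells (edgeR adjusted p of 0.994), and 0.11 without the experiment 1 library from 10000 cells (edgeR adjusted p of 0.823). With a library left out, its experiment has a single library, which is assumed to vary like the pair of the other experiment, here and for the other genes tested that way. Libraries of an experiment share a day, so these p-values carry no replication of days. Whole chromosomes also moved between the experiments. The median log2 fold change over expressed genes was -0.25 on chromosome 15, which carries Smarcd1, and between -0.03 and 0.07 on the chromosomes of the other 9 subunits. Other cell markers moved too. The neural sum was 19.8 and 22.4 CPM in experiment 1 against 31.4 to 37.4 CPM in experiment 2, the fibroblast sum 31.4 and 34.7 CPM against 7.54 to 9.90 CPM, most of it Thy1, and the endoderm sum 3.35 and 4.37 CPM against 0.645 to 1.01 CPM. Their part in the result was not tested.

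**Figure D2:**
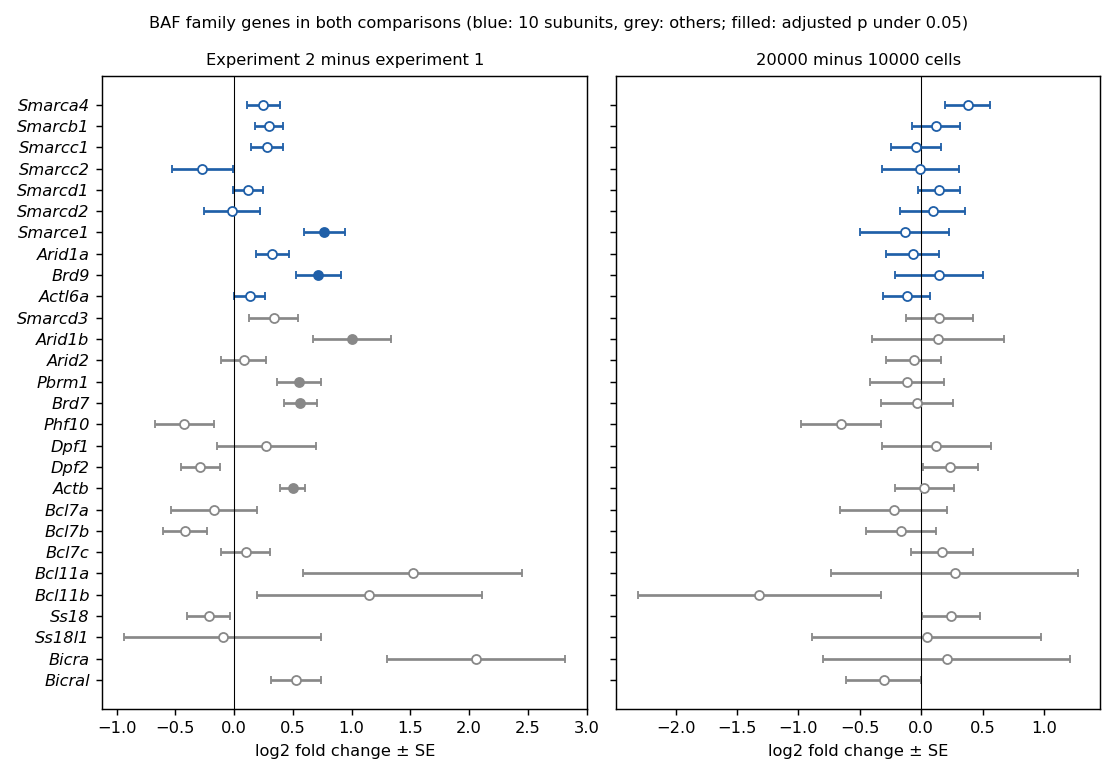
Log2 fold changes from edgeR with their standard errors for the 10 subunits (blue) and 18 other BAF family genes (grey), between experiments on the left and between cell numbers on the right; filled points have an adjusted p under 0.05. Smarce1 at 0.77 and Brd9 at 0.72 are the filled blue points on the left, and no point is filled on the right.

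The wider BAF family was followed through a list of 21 other subunit genes. Of these, 18 had enough counts to be tested and 4 rose in experiment 2, while 0 fell, beside 5.75% higher, 6.76% lower and 12.5% in all among the 12523 genes tested. Smarca2, Dpf3 and Actl6b were not tested. The 4 were Arid1b, Pbrm1, Brd7 and Actb. Arid1b, the alternative to Arid1a in canonical BAF, had 3.21 and 4.82 CPM in experiment 1 and 7.34, 8.19 and 7.93 CPM in experiment 2, a log2 difference by edgeR of 1.00 ± 0.33 (SE, adjusted p = 0.0465). Pbrm1, the polybromo subunit, had 19.3 and 17.9 CPM against 26.3, 28.1 and 26.4 CPM (0.55 ± 0.18 SE, edgeR adjusted p = 0.0492). Neither gene's experiments overlapped. Brd7, the bromodomain partner of Pbrm1 in polybromo BAF, had 71.8 and 57.5 CPM against 90.9, 89.0 and 101.9 CPM (0.56 ± 0.14 SE, edgeR adjusted p = 0.00918). The expressed genes of chromosome 8, which carries Brd7, had a median of 0.46 in the same direction, and those of chromosome 14, which carries Pbrm1, one of 0.20. The medians were -0.10 on chromosome 17, which carries Arid1b, and -0.06 on chromosome 5, which carries Actb. Actb, the beta-actin that is also a BAF subunit, rose by 0.50 ± 0.11 (SE, edgeR adjusted p = 0.00246).

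The median log2 fold change of the 18 was 0.31. With DESeq2, and with library size alone in edgeR, 2 of these genes were called in place of 4, namely Brd7 and Actb, while Arid1b and Pbrm1 had adjusted p-values of 0.0527 to 0.151. Leaving out any 1 of the 4 libraries ended the call of Pbrm1 (edgeR adjusted p of 0.101 to 0.232). The call of Arid1b was lost without each library but that from 20000 cells of experiment 1 (edgeR adjusted p of 0.175 to 0.223), and that of Brd7 without either library from 20000 cells (edgeR adjusted p of 0.112 and 0.103). Pbrm1 shares 33466 bp of its span with Smim4 on the opposite strand, so its counts are uncertain where the use of strand is not stated. Not called were the paralogs Smarcd3 (0.34 ± 0.21 SE, edgeR adjusted p = 0.327) and Arid2 (0.08 ± 0.19 SE, edgeR adjusted p = 0.854). Bicra, the scaffold of non-canonical BAF beside Brd9, had 7 and 8 counts in experiment 1 and 42, 31 and 49 counts in experiment 2, with a log2 fold change of 2.06 ± 0.76 (SE, edgeR adjusted p = 0.0768). It was named after its values were seen.

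Input was the other variable of the design. No subunit was called between 20000 and 10000 cells. With edgeR 0 of 10 had an adjusted p under 0.05 and 0 an unadjusted p under 0.05, beside 0% and 0.807% of the 12523 genes tested. DESeq2 and the fit with the experiment as a replicate block also called 0 of the 10. The largest value was that of Smarca4, at a log2 fold change of 0.38 ± 0.18 (SE, edgeR unadjusted p = 0.0802, adjusted p = 0.999). It was 0.30 in experiment 1 and 0.48 in experiment 2 on the log2(CPM + 1) scale. The other 9 lay between -0.14 (Smarce1) and 0.15 (Brd9), with standard errors of 0.17 to 0.37. With a library left out, the value of Smarca4 ran from 0.21 to 0.54 and was not always the largest. Without the experiment 2 library from 20000 cells it was 0.21, beside -0.67 for Smarce1. The groups mix the experiments here, and the biological coefficient of variation was 32% against 17.1% in the comparison of experiments. Of the 18 other family genes 0 were called.

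Several subunits have paralogs or related counterparts, and the relative amount of their mRNA was read as the share of the first gene in the counts of a pair. SMARCC1 and SMARCC2 can sit together in 1 complex as a dimer, so a share of counts is not a share of complexes. The share depends on the lengths of both genes, so it is compared between libraries and not with 50%. Smarcc1 made up 85.3% and 86.0% of the counts of Smarcc1 and Smarcc2 in experiment 1 and 85.4%, 90.3% and 89.2% in experiment 2. The libraries from 10000 and 20000 cells of experiment 2 stood above the other 3, and the 95% Wilson interval of the first (88.5% to 91.8%) overlapped none of theirs, which ended at 88.0% or below. That of the second (87.6% to 90.6%) overlapped those of the libraries from 5000 cells and from 20000 cells of experiment 1. Such intervals cover counting error only and not the spread between libraries. Smarcd1 made up 90.4% and 90.7% of the counts of Smarcd1 and Smarcd2 in experiment 1 and 89.1%, 91.1% and 91.5% in experiment 2. Against Smarcd3, the paralog BAF60c known from heart and muscle, the share of Smarcd1 was 87.1% and 88.6% in experiment 1 and 86.1%, 86.9% and 85.6% in experiment 2. Both shares of Smarcd1 stayed within a few percentage points over the 5 libraries.

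Of the 5 pairs tested, Arid1a and Arid1b differed most between the experiments. Arid1a made up 95.1% and 92.4% of their counts in experiment 1 and 88.8%, 90.3% and 90.4% in experiment 2, so that every library of experiment 2 lay lower. The mean log2 ratio went from 3.93 ± 0.47 (SD, n = 2) to 3.14 ± 0.14 (SD, n = 3), a difference of -0.79. The two-sided exact permutation p was 0.1, the smallest that 10 arrangements allow, and 0.25 after Benjamini-Hochberg adjustment over 5 pairs. It was -0.45 without the experiment 1 library from 10000 cells and -1.12 without that from 20000 cells. Smarcd1 to Smarcd3 also did not overlap, at -0.22 (exact permutation p = 0.1, adjusted p = 0.25), and was -0.12 without the experiment 1 library from 20000 cells. The other pairs overlapped, and each difference moved by over 1.5 times with a library left out. The differences were 0.36 for Smarcc1 to Smarcc2 (exact permutation p = 0.3, adjusted p = 0.5), 0.09 for Brd9 to Brd7 (exact p = 0.6, adjusted p = 0.75) and 0.01 for Smarcd1 to Smarcd2 (exact p = 1, adjusted p = 1). For Smarcc1 to Smarcc2 the value was 0.55 without the library from 5000 cells and 0.22 without that from 10000 cells of experiment 2. For Brd9 to Brd7 the values with 1 library left out ran from 0.0044, without that from 10000 cells of experiment 1, to 0.19, without that from 20000 cells of experiment 1. For Smarcd1 to Smarcd2 they ran from -0.063, without that from 20000 cells of experiment 2, to 0.14, without that from 5000 cells. Brd9, the non-canonical subunit, made up 21.4% ± 1.31 (SD, n = 5) of the counts of Brd9 and its polybromo relative Brd7, and both genes rose in experiment 2. Of Actl6b, the neuronal counterpart of Actl6a, 0 to 3 counts were found beside 2099 to 3762 counts of Actl6a.

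**Figure D3:**
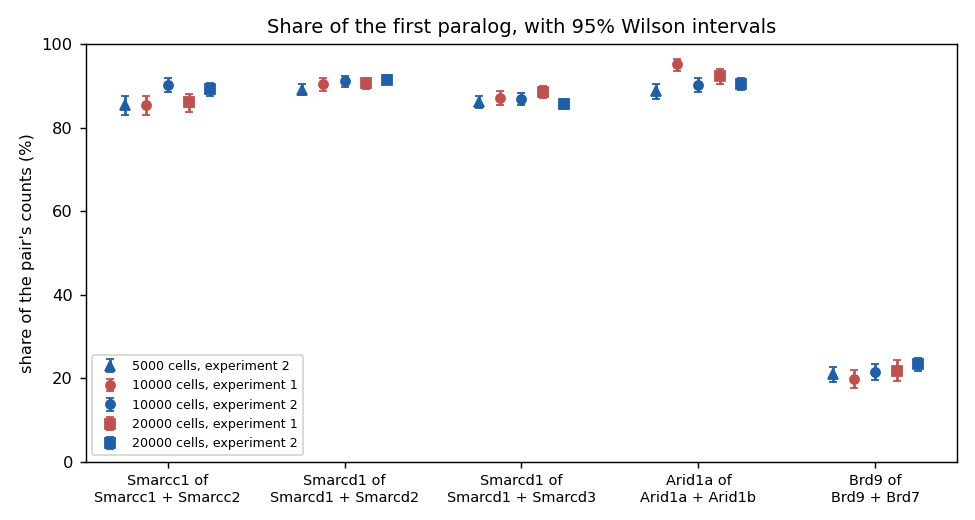
Share of the first paralog in the counts of each pair, in percent, 1 point per mRNA library with its 95% Wilson interval, which covers counting error only; colours and shapes stand for experiment and cell number. Arid1a lies at 92.4% or more in experiment 1 and at 90.4% or less in experiment 2, whereas Brd9 lies between 19.7% and 23.3%.

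The genes whose profile over the 5 libraries was nearest to that of Smarca4 were Exoc3l, an exocyst relative, Rbm19, a factor of ribosome assembly, and Dhx32, a helicase-like protein. Their root mean square differences of centred log2(CPM + 1) from Smarca4 were 0.022, 0.035 and 0.038, the smallest among the 6484 other expressed genes. Like Smarca4, all 3 were highest in the experiment 2 library from 20000 cells, which follows from their being picked as the nearest profiles.

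The ATAC files list open intervals per library, with no height or score, and their read depth is unknown. A promoter was called open when an interval lay within 1000 bp of the 5′ end of the gene in the count table. In the low-input lists of experiment 1, 6 of the 10 subunits had an open promoter at 10000 cells and 9 at 20000 cells. In experiment 2 the numbers were 7 at 5000 cells, 8 at 10000 cells and all 10 at 20000 cells. Omni-ATAC gave 4 with 5000 cells, 8 with 10000 cells and 10 with 50000 cells. Among expressed genes the shares in the same order were 61.7% and 71.2%, then 62.7%, 76.9% and 88.8%, and for Omni-ATAC 38.8%, 75.9% and 95.7%. Over all 24470 genes they were 31.1% and 37.4%, then 31.1%, 40.5% and 50.3%, and for Omni-ATAC 18.6%, 41.5% and 61.1%. The lists held between 9097 and 95457 intervals. The counts were lower when only intervals of at least 50 bp were used, at 3 and 5 in experiment 1, 3, 5 and 9 in experiment 2, and 1, 4 and 10 for Omni-ATAC in the same order. The same intervals covered 35%, 45.9%, 36.2%, 53.6%, 75.2%, 13.6%, 48.6% and 93.5% of expressed genes. At equal cell number the protocols gave 7 (low input) and 4 (Omni-ATAC) at 5000 cells, and 6 and 8 against 8 at 10000 cells. With every list limited to its widest 9097 intervals, both gave 4 at 5000 cells, and low input gave 5 and 4 against 3 at 10000 cells. So limited, low input gave 4 and 5 at 20000 cells and Omni-ATAC 5 at 50000 cells, and every list lay between 3 and 5 of the 10 subunits. The share of expressed genes was then 41.6% and 41% in experiment 1, 44%, 44.5% and 45.8% in experiment 2, and 38.8%, 40.8% and 48.8% for Omni-ATAC. Depth is unknown and Omni-ATAC has 1 list per cell number, so no test was made.

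Smarcc1, Smarcc2, Smarcd1 and Actl6a had an open promoter in all 8 lists (4 of 10, beside 32.2% of expressed genes, which do not include Smarcc2). In Omni-ATAC with 5000 cells this rested on 9 bp each for Smarcc1, Smarcc2 and Smarcd1, and on 72 bp for Actl6a. Of these genes only Actl6a had intervals of at least 50 bp in all 8 lists. Smarca4 and Smarcd2 had one in 7, missing only from Omni-ATAC with 5000 cells, which is the shortest list. Brd9 had one in 5, Smarce1 and Arid1a in 4 and Smarcb1 in 3. Smarce1 and Brd9, the subunits called between the experiments, each had an open promoter in 1 of the 2 lists of experiment 1 and in 2 of the 3 lists of experiment 2, and at equal cell number the lists of experiment 2 were longer. Smarcb1 was open in the fewest lists and had at least 197.9 CPM in every library. Its promoter was open with 10000 and 20000 cells in experiment 2 and with 50000 cells by Omni-ATAC.

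The intervals differed in width and place. Of the 84 intervals at the 10 promoters, 24 (28.6%) measured 9 bp, beside 24.4% to 59.2% of all intervals of a list, and 30 overlapped the gene start. At Smarcc1 the 5 low-input intervals were nearly identical, each reaching from between 183 and 140 bases before the start to 64 or 65 bases after it, with widths of 206 to 249 bp. At Actl6a, 4 of the 8 lists had an interval that began 14 bases before the start and 1 had an interval that began 13 bases before it. At Smarcd2 all 7 lists with an open promoter held an interval over the start. Smarcd1 and Smarce1 showed the opposite, with no interval over the start in any list, as was the case for Arid1a. At Smarcd1 the intervals lay on both sides of the start, and at Smarce1 most lay after it.

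At Smarcc2 the interval seen in most lists lay well before the start. A 9 bp interval from 621 to 613 bases before it (chr10:128458615-128458623) was found unchanged in 4 lists, and the other 4 lists held a wider interval over the same bases. An interval over the start itself was present in the Omni-ATAC list from 50000 cells alone. The start of Mir8105 lies 556 bp from that of Smarcc2 on the same strand, and with 0.0129 CPM on average it was hardly counted. Brd9 shares its promoter with Trip13, a meiotic checkpoint ATPase gene, whose start lies 44 bp away on the opposite strand, so intervals there cannot be assigned to either gene.

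**Figure D4:**
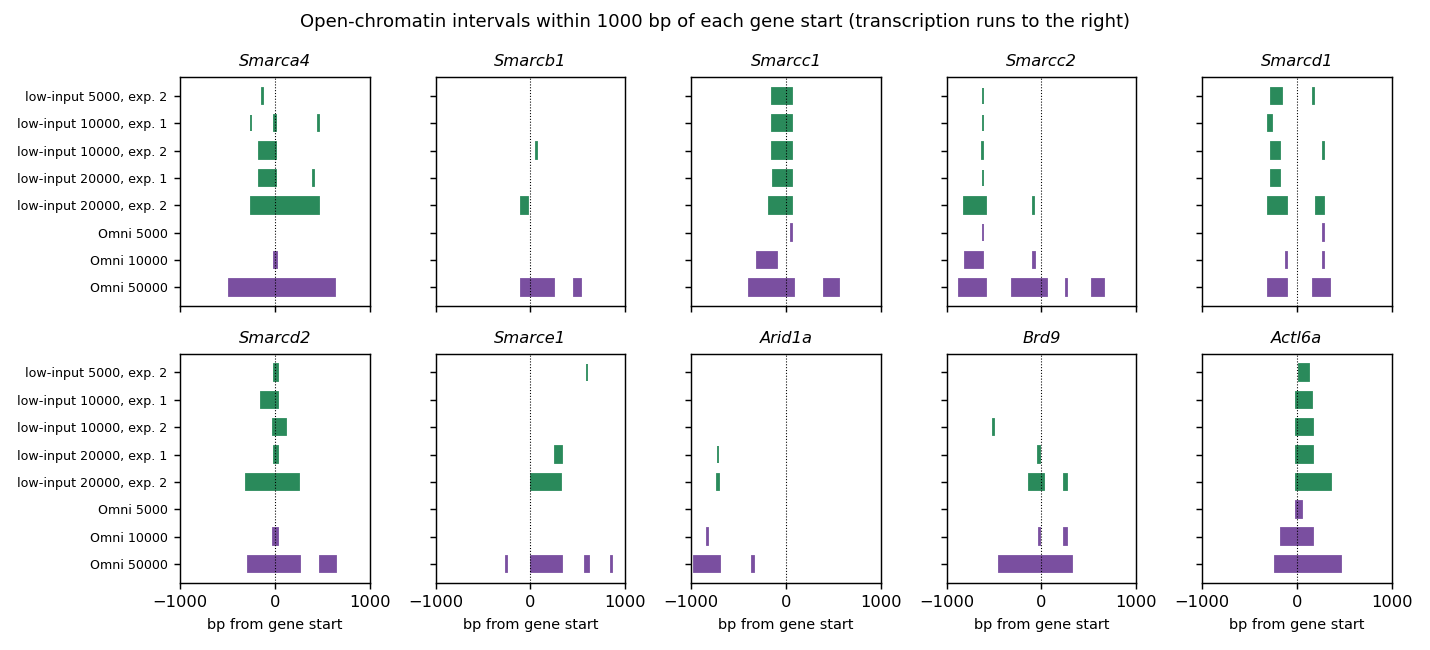
Open intervals within 1000 bp of each of the 10 gene starts, 1 row per ATAC list (green low-input, purple Omni-ATAC), with the distance from the start in bp and the direction of transcription to the right; a thin outline makes the 9 bp intervals visible and intervals end at the edge of the window. Smarcc1 shows intervals at nearly the same place in the 5 low-input lists, whereas Smarcb1 shows them in 3 of the 8 lists.

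The promoter sequences are shown for the subunits on which these patterns turn, as the 250 bases before the start in the RefSeq promoter table (build GRCm38.p6, sense strand of the gene, 5′ to 3′). That table held 9 of the 10 subunits, without Smarce1. Windows of first-listed starts were counted. For Smarcd2 that start lies 5340 bp after the one in the count table, and for Arid1a 3158 bp before it. The first pair are Smarcc1, a scaffold subunit with nearly the same interval in the 5 low-input lists, and the ATPase Smarca4. In capitals are the 8 letters GCGCATGC or their reverse complement, a shortened form of the NRF1 motif called its core here.
Smarcc1 (chr9:110131774-110132023, plus strand): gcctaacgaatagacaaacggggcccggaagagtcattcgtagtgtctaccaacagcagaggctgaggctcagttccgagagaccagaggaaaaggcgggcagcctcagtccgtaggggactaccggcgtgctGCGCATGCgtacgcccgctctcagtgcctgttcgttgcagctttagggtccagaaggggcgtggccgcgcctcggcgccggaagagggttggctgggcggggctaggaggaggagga
Smarca4 (chr9:21615919-21616168, plus strand): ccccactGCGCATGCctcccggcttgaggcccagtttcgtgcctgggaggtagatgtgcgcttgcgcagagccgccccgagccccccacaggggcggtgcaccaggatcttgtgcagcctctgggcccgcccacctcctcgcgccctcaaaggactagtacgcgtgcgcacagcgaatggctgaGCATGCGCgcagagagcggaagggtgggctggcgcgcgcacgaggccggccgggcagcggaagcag
The core was found in these 2 of 9 subunit promoters, counting both strands, beside 2.32% of all 27025 promoters in the table and 5.77% of the 5286 promoters of expressed genes. The full NRF1 motif, longer by 2 bases, was found in 0 of 9, beside 2.01% of promoters of expressed genes. The motifs were chosen after the promoters were seen, so neither comparison of shares is a test. In Smarcc1 the match starts 117 bases before the start and lay inside an interval in 7 of 8 lists. In Smarca4 the match 66 bases before the start lay inside an interval in 4 lists, and that 243 bases before it in 2 lists.

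Brd9, called between the experiments, is shown with the ETS letters CCGGAAG in capitals, and Smarcc2 with the bases covered by the 20 bp interval of the Omni-ATAC list from 10000 cells in capitals.
Brd9 (chr13:73937561-73937810, plus strand): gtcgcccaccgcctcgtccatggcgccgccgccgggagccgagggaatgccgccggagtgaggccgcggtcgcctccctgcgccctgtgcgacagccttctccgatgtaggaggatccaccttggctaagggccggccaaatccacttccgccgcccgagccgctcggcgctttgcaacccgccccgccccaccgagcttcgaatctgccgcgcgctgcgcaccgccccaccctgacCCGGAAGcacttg
Smarcc2 (chr10:128458986-128459235, plus strand): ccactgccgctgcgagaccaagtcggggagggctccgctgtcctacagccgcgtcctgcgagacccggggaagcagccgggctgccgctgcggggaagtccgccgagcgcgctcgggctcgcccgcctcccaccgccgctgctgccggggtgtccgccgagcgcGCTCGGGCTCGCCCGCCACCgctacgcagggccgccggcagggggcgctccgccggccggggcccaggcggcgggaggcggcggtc
CCGGAAG was found on either strand in 2 of 9 subunit promoters (Brd9 and Smarcc1), beside 17.9% of promoters of expressed genes. In Brd9 it starts 13 bases before the start and lay inside an interval in 2 lists. The GC box GGGCGG was found in 8 of 9, all but Smarcc2, beside 62.5%. The Smarcd2 window in these counts is that of an inner start, with no interval near it in any list. The Smarcc2 promoter was the richest in G and C of the 9 first-listed windows, at 80.8%, with 40 CpG. The median over the 9 was 64.8% G and C and 21 CpG, beside 60.0% and 17 for promoters of expressed genes and 52.0% and 6 for all promoters. None of the 9 held CCAAT, present in 37.5% of promoters of expressed genes, or the cAMP response element TGACGTCA, present in 3.14%. A match is a match of letters only, and these letters too were chosen after the promoters were seen. Matches of the GC box, the ETS letters and the NRF1 core do not share bases in these windows, and GC boxes may overlap each other.

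For 2 subunits the promoter table places the start far from that in the count table. For Smarcd2 it gives a start 5340 bp inside the gene (position 106267632 on chromosome 11), and 0 of 8 lists had an interval within 1000 bp of it, beside 7 of 8 at the start in the count table. Its window is shown because it stands apart from those of the other subunits, with 4 CpG and the letters TATAAA, in capitals. These letters were held by 1 of 9 subunit promoters and 5.66% of promoters of expressed genes. In the Smarcd2 window they lie near the upstream end, far from the inner start, and a role for them was not tested.
Smarcd2, inner start (chr11:106267633-106267882, minus strand): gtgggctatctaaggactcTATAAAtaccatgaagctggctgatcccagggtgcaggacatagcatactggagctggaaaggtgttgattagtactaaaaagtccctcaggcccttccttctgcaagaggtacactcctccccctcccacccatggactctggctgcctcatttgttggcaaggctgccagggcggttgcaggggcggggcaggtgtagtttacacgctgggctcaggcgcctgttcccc
For Arid1a the table gives starts 3158 and 374 bp before that in the count table. An interval lay within 1000 bp of the outermost of these (position 133756769 on chromosome 4) in 6 of 8 lists, 4 of them low-input, against 4 of 8 at the start in the count table. At the outermost start the intervals of the low-input library from 10000 cells of experiment 2 (125 bp) and of Omni-ATAC with 50000 cells (362 bp) covered the start itself.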

How the data were processed

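The mRNA values are raw counts per gene, deposited by the authors as whole numbers. Gene positions are in mm10. The submitters' processing notes name STAR 2.5 and featureCounts of Subread 1.5.0-p1, and Bowtie2 2.1.0, Picard, bedtools 2.24.0 and MACS2 2.1.1, with no role given. Annotation, use of strand, multi-mapped reads and the peak threshold are not given in the sources used here. The ATAC files deposited by the authors hold interval positions only. No column was left out.

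Groups come from the sample titles. CPM are counts scaled to the library total, and 3 counts is the limit for a count of 0. Genes were tested under R 4.3.3 by edgeR 4.0.16 (quasi-likelihood, TMM scaling, its default filter), checked on simulated counts, over the 4 libraries from 10000 and 20000 cells, without a block. DESeq2 1.42.0 was an alternative. The experiment number marks a shared day per the labels and so pairs libraries. Same-numbered libraries deviated together from their group means (r = 0.536 across 12523 genes). No pair of mRNA libraries differed as little as sampling noise (chi-square per gene of at least 10.7). Nothing says whether libraries of an experiment came from separate cultures, so p-values measure the spread between these libraries. Paralog ratios used a pseudocount of 0.5 counts, Wilson intervals a 95% level, which cover counting error only. Python 3.11.15 was used. The members, lists and motifs were chosen with earlier results of these data known, and the motifs after the promoters were seen. Named genes are the 10 subunits, their paralogs, genes called, markers of cell types and the 3 genes most like Smarca4. Outside this rule, Bicra was chosen after its values were seen, Dpf3 is named as not tested, and Smim4, Trip13 and Mir8105 as neighbours of named genes. Levels per length could not be computed, since transcript lengths were not used here.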

Additional observations from a re-analysis of the deposited data

Results flagged for a closer look

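Each of the following values was picked out because the difference had opposite signs in 2 groups under the same contrast, although for Smarce1 and Smarcd2 the positive value was 0.00 after rounding. There is 1 library per cell number and experiment, so the differences were not tested, and small ones may be no more than the spread between libraries. For Actl6a the difference between experiments was -0.11 at 10000 cells and 0.39 at 20000 cells on the log2(CPM + 1) scale, which differ by 0.49. Taken the other way, the difference between 20000 and 10000 cells was -0.36 in experiment 1 and 0.13 in experiment 2, again 0.49 apart. For Brd9 the difference between cell numbers was -0.13 in experiment 1 and 0.34 in experiment 2, which differ by 0.48. For Smarce1 the values were -0.30 and 0.00, which differ by 0.30, and for Smarcc2 -0.09 and 0.13, which differ by 0.22. For Smarcd2 the difference between experiments was -0.04 at 10000 cells and 0.00 at 20000 cells, which differ by 0.036.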

How the results depend on the processing

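Between experiments, 2 subunits were called in every alternative that kept all libraries, and 1 to 3 when a library was left out. Of the other BAF family genes 4 were called, 2 with DESeq2, 2 with library size alone, and 1 to 3 with a library left out. Over all genes 1567 were called, and 803 to 1815 with a library left out. Without the experiment 2 library from 20000 cells 869 were called, without that from 10000 cells 803, and without the experiment 1 library from 10000 cells 1018. Between cell numbers 0 genes were called, 2 without a filter on low counts and 4 with the replicate block, none of them a BAF gene. Between experiments, 1765 genes were called with the cell number as a block and 1127 with DESeq2. That block left 2 subunits and 4 other BAF family genes called. Log2 fold changes near 0 changed sign. Between experiments Smarcd2 was 0.0085 without a filter and 0.15 with the library from 5000 cells, and between cell numbers Smarcc2 was 0.0089 with library size alone, 0.0029 without a filter and 0.0028 with the replicate block. With a library left out, Smarcd2 ran from -0.071 to 0.052 and Actl6a from -0.020 to 0.33 between experiments. Between cell numbers the ranges were -0.075 to 0.31 for Smarcb1, -0.18 to 0.12 for Smarcc1, -0.18 to 0.21 for Smarcc2, -0.67 to 0.26 for Smarce1, -0.25 to 0.11 for Arid1a, -0.40 to 0.55 for Brd9, -0.32 to 0.074 for Actl6a, -0.14 to 0.40 for Smarcd3, -0.37 to 1.00 for Arid1b and -0.49 to 0.33 for Brd7. The difference between experiments in the log2 ratio of Smarcd1 to Smarcd2 ran from -0.063 to 0.034 with 1 of the libraries from 10000 and 20000 cells left out. The cause was not tested. With intervals of at least 50 bp, open subunit promoters numbered 3 with 5000 cells, 3 and 5 with 10000 cells and 5 in experiment 1 with 20000 cells for low input, and 1 and 4 for Omni-ATAC with 5000 and 10000 cells. With every list limited to its widest intervals, as many as the shortest list holds, they numbered 4 with 5000 cells, 4 in experiment 2 with 10000 cells, and 4 and 5 with 20000 cells for low input, and 3 and 5 for Omni-ATAC with 10000 and 50000 cells. The starts of the RefSeq table and the scalings of the chromosome medians were added after the data were seen, and moved the counts of open promoters by 1 at most and the chromosome medians by under 0.01. Read depth of the ATAC lists is unknown, so their order by cell number cannot be separated from depth. The planned comparison of levels per length was not run.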
